A study of Mus musculus with 17 samples.

Results

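Gene expression in the gastrocnemius muscle of older mice was compared with that of young adult mice on the same control diet. The comparison took every mouse that the labels place in the aging group without a supplement (Middle-aged, n = 6) or in the young group (Mature, n = 7), which is 13 of the 17 mice measured by mRNA sequencing. All were individually housed male C57BL/6J mice, an inbred strain, and no transgene or deletion is named for either group (one label field spells the strain C56BL/6J). The Middle-aged mice arrived at 12 months of age and the Mature mice at 8 weeks of age. Both groups then had 1 week of acclimation and 12 weeks of the semi-purified AIN-93 diet, so that the Mature mice were 21 weeks old at the end. The other 4 mice (ALL) had the age of the Middle-aged group and received 3% allulose, and they entered the fit only to share its estimate of the spread. Each group is a different set of animals sampled once, so age and anything else that differed between the groups cannot be told apart.

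The gastrocnemius is the large calf muscle and in mice is made mostly of fast, glycolytic fibres with a small slow portion. Its tissue also holds blood vessels, nerve branches with their Schwann cells, connective tissue, immune cells and satellite cells, the stem cells that repair fibres. Age-related loss of muscle mass and strength is known to go along with changes in growth signaling, nerve contact, capillary supply and low-grade inflammation.

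Total counts per library lay between 61832304 and 72640511 for the Middle-aged group and between 49774656 and 63970155 for the Mature group, and 16731 of 45777 genes passed the filter on low counts. CPM below means a gene's reads divided by its library's total after TMM scaling, on the usual CPM scale. The logFC is the log2 ratio of Middle-aged over Mature with its standard error (SE), and the adjusted p is that of the quasi-likelihood test of edgeR with Benjamini-Hochberg adjustment over all genes tested. A gene was called at an adjusted p under 0.05. The median SE of a logFC was 0.121. Defining genes of skeletal muscle were abundant, with 24181 ± 3626 TPM (SD, n = 6) of the muscle creatine kinase gene Ckm in Middle-aged and 24713 ± 3054 TPM (SD, n = 7) in Mature mice. One label field names adipose tissue and liver for the extraction, and the liver genes Alb and Ttr were measured at 0 to 0.316 and at 0 TPM in Middle-aged mice, against 0 to 0.360 and 0 TPM in Mature mice. Cyp2e1, a gene of liver and also of other tissues, averaged 4.198 and 7.99 TPM in Middle-aged and Mature mice. The adipocyte genes Adipoq, Retn and Cidec averaged 8.14, 3.47 and 4.62 TPM in Middle-aged and 8.20, 5.001 and 5.34 TPM in Mature mice.

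On the first principal component of the 13 libraries, which held 20.1% of the variance, the Middle-aged mice lay between 18.9 and 31.2 and the Mature mice between −35.4 and −15.3. The second component (13.2%) ran along another division that both groups share. The mitochondrial share of counts was 20.2% to 23.5% in 6 libraries (Middle-aged 1, 3 and 4, Mature 1, 2 and 3) and 15.2% to 17.9% in the other 7 (Middle-aged 2, 5 and 6, Mature 4, 5, 6 and 7). Since no label names a batch, median logFC values within these 2 sets, higher share first, are given for many of the gene groups described below, though not for all.

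**Figure D1:**
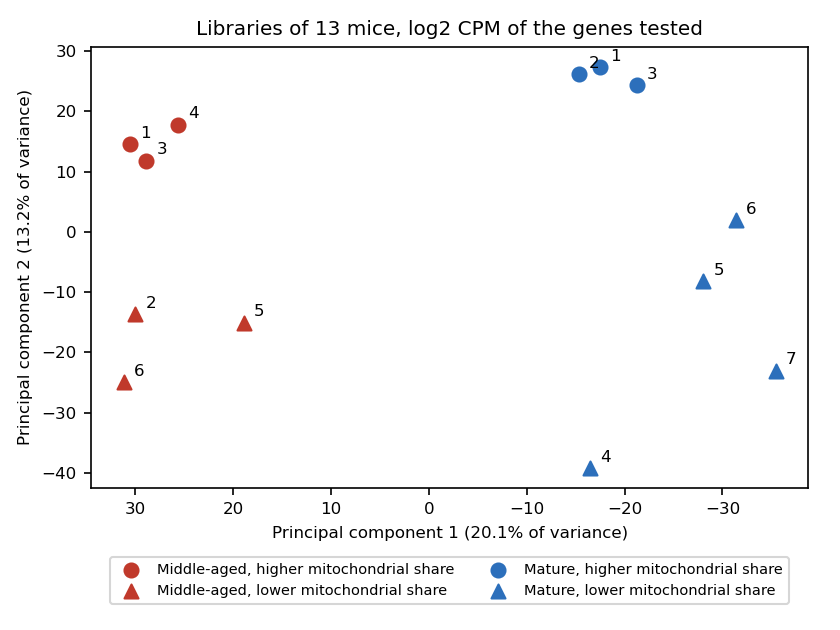
Positions of the 6 Middle-aged (red) and 7 Mature (blue) libraries on the first and second principal components of log2 CPM, with the replicate number beside each point and the horizontal axis drawn with its higher values on the left. Circles are the 6 libraries with a mitochondrial share over 20%, and triangles are the 7 with a lower share; the groups separate along the first component and the sets along the second.

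In all 1721 genes (10.3% of those tested) were called, and in the Middle-aged group 794 of them (4.75% of those tested) rose while 927 (5.54%) fell. The change was over 2-fold in 137 of the higher and 180 of the lower genes. Every Middle-aged mouse lay outside the range of the Mature mice in 676 genes (4.04% of those tested), and 644 of these were called. Counts of called members in the gene lists below are to be read beside the 10.3% called over all genes tested. A positive logFC was found in 52% of those genes. The calls were spread unevenly over expression levels. Among the 2923 genes with an average log2 CPM of 0 to 2, 273 fell and 143 rose, whereas among the 1774 genes over 6 on that scale 105 rose and 49 fell. Genes that rose made up 3.28% to 3.72% of the scaled counts of a Middle-aged mouse and 2.58% to 2.73% of those of a Mature mouse. Genes that fell made up 1.49% to 1.73% of a Middle-aged and 1.99% to 2.31% of a Mature mouse. Both sums run over genes called in these same libraries, so the gap between the groups was largely set in advance. Of 13939 protein-coding genes tested 11.5% were called, and of 1618 long non-coding RNA genes 5.38%. Of 7 immunoglobulin or T cell receptor segments and constant regions 5 rose. Among these 5, Igkv14-126 had 0 counts in every Mature mouse and passed the filter through older mice alone, so it could not fall. Ighg2c, Ighm and Igkc are counted again among the B cell markers below.

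**Figure D2:**
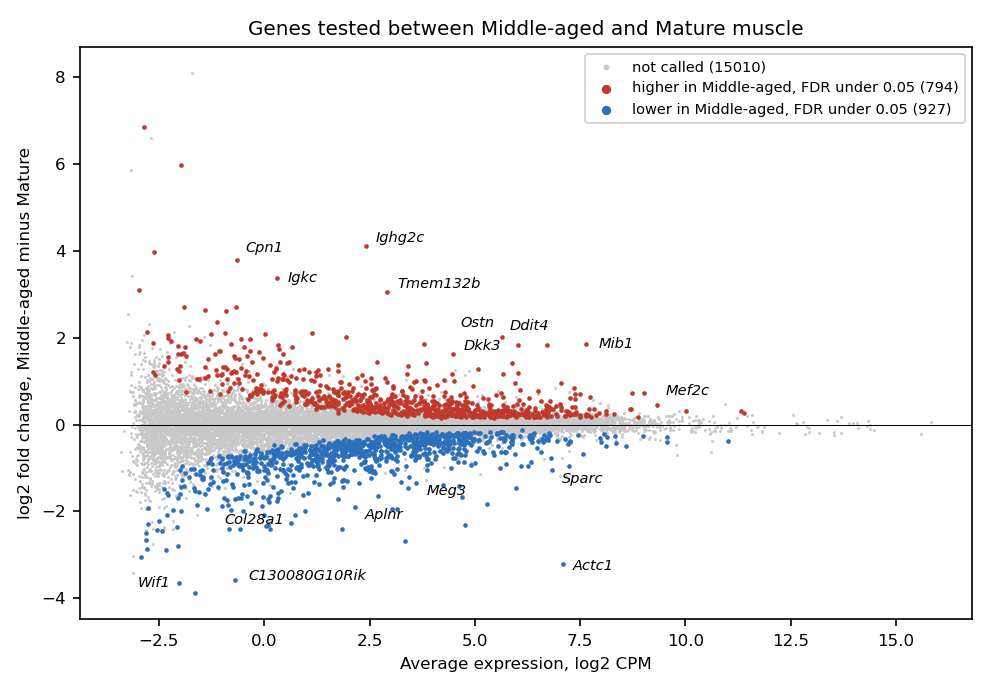
Each point is 1 of the 16731 genes tested, with its average log2 CPM on the horizontal axis and its log2 fold change (Middle-aged minus Mature) on the vertical axis. Red points are the 794 genes called higher and blue points the 927 called lower in Middle-aged mice; Actc1, at −3.20, lies far below other genes of its expression level.

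Contractile genes of the adult fast fibre were near their Mature levels, and a single actin gene stood apart. Actc1, which encodes cardiac alpha-actin, an isoform of embryonic and regenerating skeletal muscle, had a median of 27.6 CPM (12.6 to 54.1) in Middle-aged and 268 CPM (213 to 441) in Mature mice. The ranges did not overlap, and Actc1 fell by 3.20 on the log2 scale (SE 0.35, adjusted p = 1.2e-05), with −3.03 within the libraries of higher and −3.33 within those of lower mitochondrial share. Per transcript length, Actc1 stood at 36.4 ± 21.3 TPM in Middle-aged and 334 ± 97.9 TPM in Mature mice, beside 23598 ± 4259 and 25135 ± 3120 TPM of the adult actin gene Acta1 (SD, n = 6 and 7). Of 9 developmental contractile genes tested, Actc1 was the 1 that was called. The embryonic and neonatal myosins Myh3 and Myh8 had a logFC of −0.45 and −0.18 and did not pass the test.

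C130080G10Rik, a long non-coding RNA gene, lies next to Actc1 on chromosome 2 of GRCm38, where it runs from 114054396 to 114061505 on the plus strand and Actc1 runs from 114047282 to 114052875 on the minus strand. The 2 genes point away from each other with 1521 bases between them. C130080G10Rik had a median of 0.115 CPM (0 to 0.229) in Middle-aged and 1.29 CPM (0.920 to 1.66) in Mature mice. These ranges did not overlap either, and the gene fell by 3.58 on the log2 scale (SE 0.54, adjusted p = 0.00029). The start region of Actc1 is shown because serum response factor, a regulator of actin genes, binds the CArG box. Capitals mark the single exact match found on either strand. An exact match has A or T at each base between CC and GG, over the length marked. Near matches were not searched, so other CArG-like sites may be present. The window runs from 250 bases before to 50 bases after the start (GRCm38.p6 of RefSeq, chr2:114052826-114053125, minus strand).
Actc1: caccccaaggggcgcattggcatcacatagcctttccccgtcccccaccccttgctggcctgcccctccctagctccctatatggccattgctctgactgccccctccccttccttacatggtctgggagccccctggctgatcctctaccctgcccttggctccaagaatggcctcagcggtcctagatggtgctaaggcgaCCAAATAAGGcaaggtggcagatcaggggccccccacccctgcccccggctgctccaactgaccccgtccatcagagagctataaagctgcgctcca
An exact CArG match was found in 1.57% of 27025 start regions of this length and in 1 of the 8 developmental contractile genes with such a region, which is Actc1.

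Of 16 fast fibre contractile genes, 1 rose and 15 did not pass the test, with a median logFC of −0.06 beside 0.01 over all genes tested. The gene that rose, Myoz3 of the Z-disc (logFC 0.26), lost its call in 12 of the 17 fits that left out 1 library. None of 13 slow fibre genes was called by edgeR, none had an unadjusted p under 0.05 and none was called by DESeq2, although 12 of 13 were lower and their median logFC was −0.75. Spread within the groups was wide for these genes. Myh7, the slow myosin heavy chain, had a median of 76.1 CPM (2.89 to 221) in Middle-aged and 100 CPM (31.5 to 737) in Mature mice, and the groups overlapped (logFC −1.19, SE 0.78, adjusted p = 0.37). The median of the slow list was −0.12 within the libraries of higher and −1.38 within those of lower mitochondrial share, and −0.18 without Mature 5 and Mature 7.

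Abundant genes of the fibre's frame and nucleus moved by less. Mef2c, a transcription factor that maintains sarcomere genes, had a median of 724 CPM (624.7 to 823) in Middle-aged and 526 CPM (503 to 567) in Mature mice. All Middle-aged mice were above all Mature mice, and Mef2c rose with a logFC of 0.44 (SE 0.07, adjusted p = 0.00072). Naa50, which encodes an enzyme that acetylates the amino end of new proteins, had a median of 465 CPM (415 to 503) in Middle-aged and 358 CPM (327 to 399) in Mature mice, again without overlap (logFC 0.37, SE 0.06, adjusted p = 0.0011). Des, which encodes desmin, the intermediate filament that links Z-discs, had a median of 2821 CPM (2685 to 3270) in Middle-aged and 2306 CPM (2233 to 2720) in Mature mice. The ranges of Des overlapped, and its rise (logFC 0.26, SE 0.07, adjusted p = 0.022) lost its call in 3 of the 17 fits without 1 library. Synm, a partner of desmin (logFC 0.32), and the stretch-sensing protein gene Ankrd23 (0.30) were called higher as well, and lost their calls in 7 and 10 of those fits. Of 21 genes of the sarcomere frame, 2 rose (Des and Ankrd23) and none fell.

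Few genes of membrane excitability and calcium release were called, and these went in both directions. Kcnab1, an auxiliary subunit of voltage-gated potassium channels, had a median of 18.7 CPM (12.0 to 30.3) in Middle-aged and 5.40 CPM (3.94 to 7.32) in Mature mice. Its groups did not overlap, and it rose with a logFC of 1.85 (SE 0.21, adjusted p = 1.6e-05). Kcna1, a potassium channel of muscle and of myelinated axons, had a median of 1.65 CPM (1.20 to 2.20) in Middle-aged and 4.46 CPM (3.60 to 10.2) in Mature mice, and it fell by 1.70 on the log2 scale (SE 0.26, adjusted p = 0.00038). Its counts were 437 and 509 in Mature 5 and Mature 7, against 214 to 289 in the other Mature mice. In all, 3 of 25 surface channel and pump genes rose and 1 fell (16% called, beside 10.3% of all genes tested). Of 24 calcium release and uptake genes 8.33% were called, no more than among all genes. Itpr1, the inositol trisphosphate receptor, rose and Casq1, the main calcium buffer of the fast fibre store, fell. Itpr1 had a median of 58.5 CPM (52.9 to 62.7) in Middle-aged and 35.4 CPM (27.1 to 48.4) in Mature mice, with no overlap (logFC 0.63, SE 0.11, adjusted p = 0.0016). Casq1 had a median of 1770 CPM (1516 to 2113) in Middle-aged and 2082 CPM (1995 to 2910) in Mature mice, and its call (logFC −0.37, SE 0.11, adjusted p = 0.042) was lost in 8 of the 17 fits without 1 library.

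Ostn encodes musclin (osteocrin), a peptide that muscle secretes and that in mice slows the clearance of natriuretic peptides. It had a median of 68.6 CPM (59.4 to 84.9) in Middle-aged and 16.6 CPM (10.4 to 29.2) in Mature mice, a rise of 2.01 on the log2 scale (SE 0.19, adjusted p = 4.2e-06). Ostn was the only one of 15 muscle-secreted factors that was called. Mstn, which encodes myostatin, the inhibitor of muscle growth, had a median of 99.0 CPM (77.6 to 105) in Middle-aged and 116 CPM (78.7 to 138) in Mature mice, and these ranges overlapped (logFC −0.23, SE 0.13, adjusted p = 0.32).

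**Figure D3:**
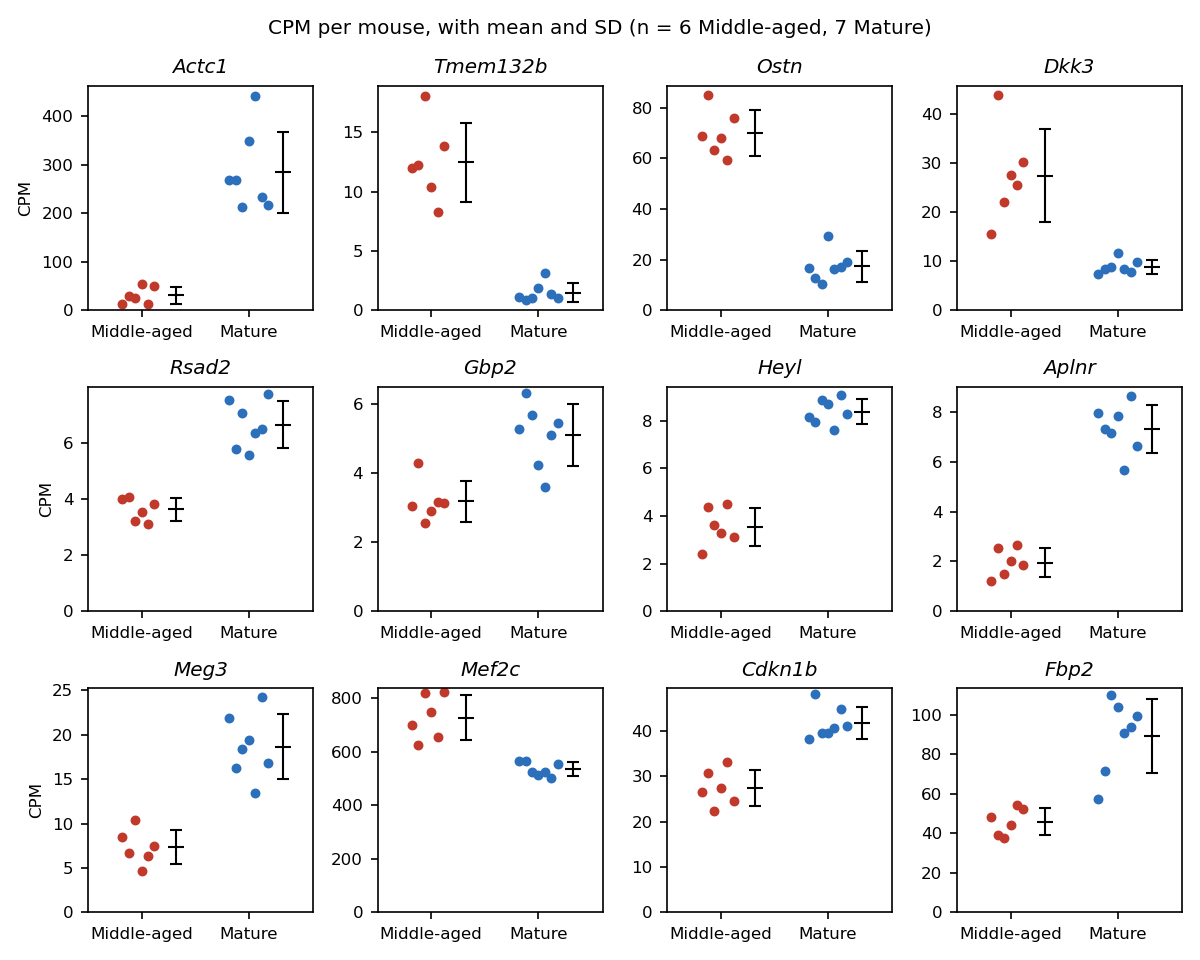
CPM of 12 genes in each mouse (points), with Middle-aged mice in red on the left and Mature mice in blue on the right of each panel, and the mean and SD in black beside them. Vertical axes start at 0; in all panels except Gbp2 the 2 groups occupy separate ranges.

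Imprinted genes, which are expressed from the maternal or the paternal copy only and many of which control growth, were lower where they were called. Of 21 tested, 7 fell, none rose and 14 did not pass the test, with a median logFC of −0.31 (0.01 over all genes tested). Meg3, a long non-coding RNA of the maternal copy on chromosome 12, had a median of 7.08 CPM (4.69 to 10.4) in Middle-aged and 18.4 CPM (13.4 to 24.3) in Mature mice. The ranges were separate, and Meg3 fell by 1.34 on the log2 scale (SE 0.16, adjusted p = 4.3e-05). Rian, which lies in the same imprinted cluster as Meg3, had a median of 3.72 CPM (2.32 to 5.09) in Middle-aged and 7.98 CPM (5.34 to 9.36) in Mature mice (logFC −1.02, SE 0.17, adjusted p = 0.00067). The third non-coding RNA of the cluster, Mirg, was scarce and had a logFC of −1.57 (SE 0.37, adjusted p = 0.0092). These 3 genes are neighbours on chromosome 12 and are usually expressed together, so they are not separate pieces of evidence. Peg3, a zinc finger gene of the paternal copy, had a median of 12.9 CPM (9.14 to 28.8) in Middle-aged and 36.8 CPM (27.0 to 73.5) in Mature mice, with 1 Middle-aged mouse inside the Mature range (logFC −1.41, SE 0.25, adjusted p = 0.0015). Slc38a4, an amino acid transporter, had a median of 87.6 CPM (64.1 to 104) in Middle-aged and 154 CPM (87.5 to 189) in Mature mice (logFC −0.76, SE 0.18, adjusted p = 0.0091). The remaining calls were the cell cycle inhibitor Cdkn1c (logFC −0.41) and the growth factor Igf2 (−0.30). H19, the non-coding partner of Igf2, had a logFC of −0.28 and did not pass. The number of imprinted genes that fell was 6 to 8 when each library was left out, and the median logFC was −0.34 and −0.43 within the libraries of higher and lower mitochondrial share.

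Of 16 satellite cell and myogenic genes, 4 fell and 1 rose. Calcr, the calcitonin receptor, which in mice keeps satellite cells quiescent, had a median of 0.313 CPM (0.214 to 0.424) in Middle-aged and 0.721 CPM (0.540 to 1.18) in Mature mice. No Middle-aged mouse reached the Mature range (logFC −1.28, SE 0.25, adjusted p = 0.0024). The myogenic factor Myf5 had a median of 0.898 CPM (0.799 to 1.28) in Middle-aged and 1.58 CPM (1.16 to 2.21) in Mature mice (logFC −0.70, SE 0.18, adjusted p = 0.016). Chrdl2 (logFC −0.67) and Notch3 (−0.56) were the others that fell. Pax7, the factor that defines satellite cells, had a logFC of −0.28 (SE 0.16, adjusted p = 0.30), and Myog, which drives their differentiation, −0.12. Myod1, a myogenic factor that adult fibres also express, was higher (logFC 0.37, SE 0.11, adjusted p = 0.029), and its call was lost in 7 of the 17 fits without 1 library. As the tissue was sequenced in bulk, fewer cells of a type and less RNA per cell cannot be told apart, here and for the cell types below.

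In the growth pathways that act through insulin-like growth factor, AKT and mTOR, calls went in both directions, and those of AKT and mTOR genes depended on single libraries. Of 23 AKT and mTOR genes (21.7% called, beside 10.3% of all genes tested), 3 rose and 2 fell, and of 15 genes of the insulin-like growth factor axis (20% called) 1 rose (Igfbp4, logFC 0.52) and 2 fell (Igf2 and Igfbp7, −0.30 and −0.46). Ddit4, a stress-induced inhibitor of mTOR complex 1, had a median of 94.1 CPM (50.1 to 190) in Middle-aged and 26.6 CPM (7.64 to 56.9) in Mature mice. The lowest Middle-aged mice lay below the highest Mature mouse, and the call of Ddit4 (logFC 1.84, SE 0.54, adjusted p = 0.036) was lost in 7 of the 17 fits without 1 library. Slc7a5, the transporter that brings in leucine (logFC 0.77), and Rictor of mTOR complex 2 (0.35) were higher, and Eif4ebp1, a repressor of translation that mTOR inactivates (−0.52), was lower. Without 1 library, 0 to 3 of these genes were called higher and 0 to 2 lower. Mtor itself had a logFC of 0.04 and Igf1 of 0.28 (median 11.7 CPM, 9.58 to 16.8, in Middle-aged and 9.14 CPM, 5.86 to 16.5, in Mature mice), and neither passed. Of 17 genes of the myostatin and activin pathway 1 rose, Ltbp3 (logFC 0.27), a protein that holds latent TGF-beta in the matrix.

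Cell cycle inhibitors moved in both directions. Cdkn1b, which encodes p27, had a median of 27.1 CPM (22.3 to 33.2) in Middle-aged and 40.7 CPM (38.3 to 48.2) in Mature mice. It fell by 0.60 on the log2 scale with no overlap (SE 0.10, adjusted p = 0.0007). Cdkn2c, which encodes p18, had a median of 11.6 CPM (10.8 to 12.6) in Middle-aged and 8.66 CPM (7.79 to 10.03) in Mature mice, a rise of 0.39 (SE 0.07, adjusted p = 0.0021). Plk2, a kinase gene activated by p53, had a median of 4.27 CPM (3.29 to 5.73) in Middle-aged and 8.47 CPM (6.38 to 8.93) in Mature mice (logFC −0.84, SE 0.15, adjusted p = 0.0012). Cdkn1a, the p21 gene often used as a mark of senescent cells, had a median of 14.1 CPM (7.31 to 24.2) in Middle-aged and 26.5 CPM (6.46 to 61.5) in Mature mice, and these ranges overlapped (logFC −0.97, SE 0.45, adjusted p = 0.19). Of 20 p53 targets and cell cycle inhibitors, 2 rose (Cdkn2c and Trp53inp1) and 3 fell (Cdkn1b, Cdkn1c and Plk2). None of 17 proliferation genes was called by edgeR, 4 had an unadjusted p under 0.05 and DESeq2 called 1.

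Among 30 immediate early genes, which respond within minutes to stimuli, 6 rose and 5 fell, with a median logFC of 0.36 (0.42 and 0.15 within the sets). Zfp36, which encodes tristetraprolin, a protein that destabilizes inflammatory mRNAs (logFC 1.02), Dusp1 (0.67), Klf4 (0.55), Btg2 (0.54), Sik1 (0.51) and Ier3 (0.38) rose. Nr4a2 (−0.90), Klf10 (−0.86), Zfp36l1 (−0.56), Myc (−0.49) and Btg1 (−0.48) fell. The number that rose was 1 to 8 when 1 library was left out and 3 without Mature 5 and Mature 7. Klf4 was 21.2 CPM in Middle-aged 5 and 8.77 to 13.4 CPM in the other Middle-aged mice. Its call was lost in 5 of the 17 fits without 1 library. Sgk1, a kinase gene that glucocorticoids induce, had a median of 251 CPM (211 to 286) in Middle-aged and 147 CPM (104 to 217) in Mature mice (logFC 0.64, SE 0.17, adjusted p = 0.023, lost in 2 of the 17 fits without 1 library). Fkbp5, another glucocorticoid target, pointed the other way with a median of 78.0 CPM (32.1 to 184) in Middle-aged and 182 CPM (118 to 300) in Mature mice, and did not pass (logFC −1.19, SE 0.38, adjusted p = 0.054).

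Notch signaling passes between neighbouring cells and in vessels sets the identity of arteries and mural cells. Of its 22 genes tested, 6 fell and 3 rose. On the side of ligand activation, Mib1, the ubiquitin ligase that lets ligands be pulled in, had a median of 292 CPM (194 to 430) in Middle-aged and 79.8 CPM (73.1 to 95.4) in Mature mice. All Middle-aged mice lay above the Mature range and Mib1 rose (logFC 1.85, SE 0.18, adjusted p = 4.2e-06), and Mib2 (0.23) was higher too. On the side of ligand and receptor, Jag1 (logFC −0.50) and Notch3, the receptor of pericytes, fell. Notch3 had a median of 12.3 CPM (10.2 to 14.5) in Middle-aged and 18.1 CPM (15 to 20.3) in Mature mice (logFC −0.56, SE 0.08, adjusted p = 0.00022). Mfng, a Fringe enzyme that adds sugars to Notch receptors, had a median of 1.74 CPM (1.305 to 2.08) in Middle-aged and 2.76 CPM (2.56 to 3.39) in Mature mice (logFC −0.78, SE 0.14, adjusted p = 0.0012). Among target genes, Heyl had a median of 3.45 CPM (2.42 to 4.51) in Middle-aged and 8.26 CPM (7.62 to 9.08) in Mature mice, with a wide gap between the groups (logFC −1.24, SE 0.12, adjusted p = 4.2e-06). Nrarp (−0.83) and Hey1 (−0.50) fell with it, and Hes6 (0.38), a relative of the Hes genes that Notch does not induce, rose. Hes1 had a logFC of 0.35 and did not pass. Leaving out 1 library gave 6 to 7 lower and 2 to 4 higher Notch genes, and the median logFC of the list was −0.33 and −0.11 within the sets.

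Of 26 Wnt pathway genes, 5 rose and 3 fell, and both ligands and inhibitors were among them. Dkk3, a secreted protein of the Dickkopf family of Wnt regulators, had a median of 26.5 CPM (15.6 to 43.8) in Middle-aged and 8.36 CPM (7.39 to 11.6) in Mature mice. It rose without overlap (logFC 1.62, SE 0.29, adjusted p = 0.0013). Wnt5b had a median of 1.55 CPM (1.16 to 2.33) in Middle-aged and 0.600 CPM (0.479 to 1.33) in Mature mice (logFC 1.08, SE 0.23, adjusted p = 0.0049). Wnt11 (0.44), Wnt9a (0.36) and Axin2, a feedback target of beta-catenin (0.32), were also higher. Wif1, which binds and blocks Wnt proteins outside the cell, had 0, 0, 0, 2, 5 and 8 counts in the Middle-aged mice, against 4 to 65 counts in the Mature mice. Its fall (logFC −3.65, SE 0.88, adjusted p = 0.011) therefore rests on few reads, and the ranges overlapped. The Middle-aged counts of Wif1 were too low to pass the filter, so it was tested through other mice and could hardly have risen. Wnt5a (−0.56) and the receptor Fzd4 (−0.43) were the other genes that fell, and Ctnnb1, which encodes beta-catenin, had a logFC of −0.05.

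Genes of vessel growth and of the vessel wall were mostly lower where they were called. Aplnr, the apelin receptor of endothelial cells, had a median of 1.93 CPM (1.21 to 2.65) in Middle-aged and 7.29 CPM (5.68 to 8.62) in Mature mice. The groups were well apart, and Aplnr fell by 1.90 on the log2 scale (SE 0.23, adjusted p = 4.1e-05), with −2.27 and −1.61 within the libraries of higher and lower mitochondrial share. Ephb4, a receptor of venous endothelium, had a median of 9.51 CPM (7.39 to 11.5) in Middle-aged and 15.6 CPM (15.2 to 18.1) in Mature mice (logFC −0.75, SE 0.08, adjusted p = 1.7e-05), and its arterial ligand Efnb2 fell as well (−0.47). The angiopoietin receptor Tek (−0.72) and its partner Tie1 (−0.77) fell, while Angpt1, the ligand of Tek, rose (0.51). Vegfa, the main angiogenic factor of muscle fibres, was near its Mature level (logFC 0.01, SE 0.12, adjusted p = 0.97), and its receptor Kdr did not pass (logFC −0.38, SE 0.12, adjusted p = 0.060). In all, 5 of 22 angiogenic ligands and receptors fell and 1 rose, with a median logFC of −0.27 and −0.10 within the sets.

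Markers of vessel and nerve cells were lower as well, but the lists overlap: Tie1, Tek and Kdr are both angiogenic receptors and endothelial markers, and Heyl and Notch3 are both Notch genes and pericyte markers. Of 17 endothelial markers 11 fell and none rose (median −0.57 and −0.42 within the sets), and their summed level was 304 to 384 CPM in Middle-aged and 403 to 505 CPM in Mature mice. Cldn5, a tight junction protein of endothelium, had a median of 5.48 CPM (4.10 to 7.53) in Middle-aged and 12.3 CPM (8.14 to 16.8) in Mature mice (logFC −1.08, SE 0.16, adjusted p = 0.00022). Of 14 smooth muscle and pericyte markers 9 fell (median −0.52 and −0.36 within the sets) and 1 rose, which was Des, a gene that muscle fibres express far more. Of 17 Schwann cell and myelin markers 15 fell, with a summed level of 40.1 to 103 CPM in Middle-aged and 85.9 to 465 CPM in Mature mice. Mature 5 (338 CPM) and Mature 7 (465 CPM) stood above the other Mature mice (85.9 to 165 CPM), and without these mice 12 markers fell with a median logFC of −1.34. Both belong to the libraries of lower mitochondrial share. The median logFC of the Schwann cell list was −0.73 within the libraries of higher and −2.65 within those of lower mitochondrial share, against −1.84 over all mice. Of 13 genes of the denervation response edgeR and DESeq2 called 0, with 1 at an unadjusted p under 0.05. Of 18 junction genes 2 fell, Utrn (−0.56) and Dusp6 (−0.77), which is 11.1% called beside 10.3% of all genes tested. The part that vessel and nerve content has in the Notch and vessel gene differences was not tested.

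Many matrix genes were lower, though most members of each list did not pass the test. Of 41 collagen genes tested 16 fell, none rose and 25 did not pass, with a median logFC of −0.61 (−0.83 and −0.53 within the sets), and the summed level of the list was 344 to 531 CPM in Middle-aged and 544 to 917 CPM in Mature mice. Col1a1, a chain of type I collagen, had a median of 11.8 CPM (7.74 to 16.6) in Middle-aged and 28.7 CPM (19.2 to 47.8) in Mature mice (logFC −1.39, SE 0.20, adjusted p = 0.0002). Sparc, a glycoprotein that binds collagen, had a median of 80.1 CPM (67.0 to 95.4) in Middle-aged and 167 CPM (130 to 204) in Mature mice (logFC −1.05, SE 0.12, adjusted p = 1.6e-05). Col28a1, a collagen of peripheral nerve in mice, had a median of 0.717 CPM (0.303 to 0.975) in Middle-aged and 3.17 CPM (1.28 to 4.22) in Mature mice (logFC −2.09, SE 0.30, adjusted p = 0.00023). Of 24 crosslinking and turnover genes 6 fell, 17 did not pass and 1 rose, the matrix protease Mmp9 (logFC 1.57), whose call was lost without Mature 5 and Mature 7. Of 13 markers of fibro-adipogenic cells, the main matrix-producing cells, edgeR called 1 higher, Cxcl14, which lost its call in 5 of the 17 fits without 1 library, and DESeq2 called 1 higher and 2 lower. The median logFC of these markers was −0.26 and 0.63 within the sets, so their direction differed between them. Of 12 tendon cell markers, of which Col11a1 and Col12a1 are also in the collagen list, 7 fell (median −2.05 and −1.15 within the sets), and the list summed to 34.2 to 52.4 CPM in Middle-aged and 37.5 to 112 CPM in Mature mice. The part of tendon content in the collagen differences was not tested.

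Genes induced by interferon, the antiviral signal, were lower in Middle-aged muscle where they were called, with 1 exception. Of 26 tested 10 fell, 1 rose and 15 did not pass, with a median logFC of −0.40 beside 0.01 over all genes tested. Rsad2, which encodes the antiviral enzyme viperin, had a median of 3.69 CPM (3.12 to 4.08) in Middle-aged and 6.47 CPM (5.56 to 7.74) in Mature mice. No value was shared between the groups, and Rsad2 fell by 0.87 on the log2 scale (SE 0.10, adjusted p = 2.4e-05). Gbp2, a guanylate-binding protein that attacks intracellular pathogens, had a median of 3.10 CPM (2.55 to 4.29) in Middle-aged and 5.27 CPM (3.62 to 6.31) in Mature mice, and 1 Middle-aged mouse lay inside the Mature range (logFC −0.68, SE 0.16, adjusted p = 0.0091). Gbp7 had a median of 6.71 CPM (4.18 to 9.47) in Middle-aged and 10.1 CPM (8.11 to 15.4) in Mature mice (logFC −0.73, SE 0.18, adjusted p = 0.012).

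The start regions of Rsad2 and Gbp2 are shown because the transcription factor complex of type I interferon, which includes Stat2 and Irf9, binds the interferon-stimulated response element. Capitals mark the core of that element, which is TTTC followed by any 2 bases and TTTC again. It was searched on both strands and found once in each (GRCm38.p6 of RefSeq, chr12:26456403-26456702 on the minus strand and chr3:142620413-142620712 on the plus strand).
Rsad2: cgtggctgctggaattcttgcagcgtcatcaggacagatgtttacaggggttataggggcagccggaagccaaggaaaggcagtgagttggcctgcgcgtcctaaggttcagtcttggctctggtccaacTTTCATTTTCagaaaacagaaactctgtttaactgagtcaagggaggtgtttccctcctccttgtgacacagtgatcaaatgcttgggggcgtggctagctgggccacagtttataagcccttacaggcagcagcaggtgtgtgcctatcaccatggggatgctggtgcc
Gbp2: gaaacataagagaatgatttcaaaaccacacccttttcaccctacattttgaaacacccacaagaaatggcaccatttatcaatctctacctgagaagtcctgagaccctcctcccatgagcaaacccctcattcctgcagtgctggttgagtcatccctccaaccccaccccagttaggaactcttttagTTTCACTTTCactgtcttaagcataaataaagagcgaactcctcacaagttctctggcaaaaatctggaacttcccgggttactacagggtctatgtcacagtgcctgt
The core was found in 3.49% of 27025 start regions and in 3.00% of the 12339 regions of genes tested. It was found in 12 of the 18 interferon list genes with a region, and in 5 of the 10 that fell, which are Gbp2, Gbp3, Gbp7, Rsad2 and Stat2. Of the 8 other members with a region, 7 carry it, so that it was no more frequent among the genes that fell.

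Within the complex itself, Stat2 (logFC −0.50) and Irf9 (−0.40) fell. Ifi44 (−0.98), Gbp3 (−0.70), Oasl2 (−0.65), Ifit2 (−0.55) and Irf1 (−0.41) were the other genes that fell. Ifi27, a protein gene of the mitochondrial and nuclear membranes, rose with a median of 17.2 CPM (15.3 to 19.5) in Middle-aged and 13.05 CPM (12.0 to 15.2) in Mature mice (logFC 0.39, SE 0.08, adjusted p = 0.0051). Leaving out 1 library gave 6 to 11 lower genes, and leaving out Mature 5 and Mature 7 gave 6. The median logFC of the list was −0.64 within the libraries of higher and −0.15 within those of lower mitochondrial share.

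**Figure D4:**
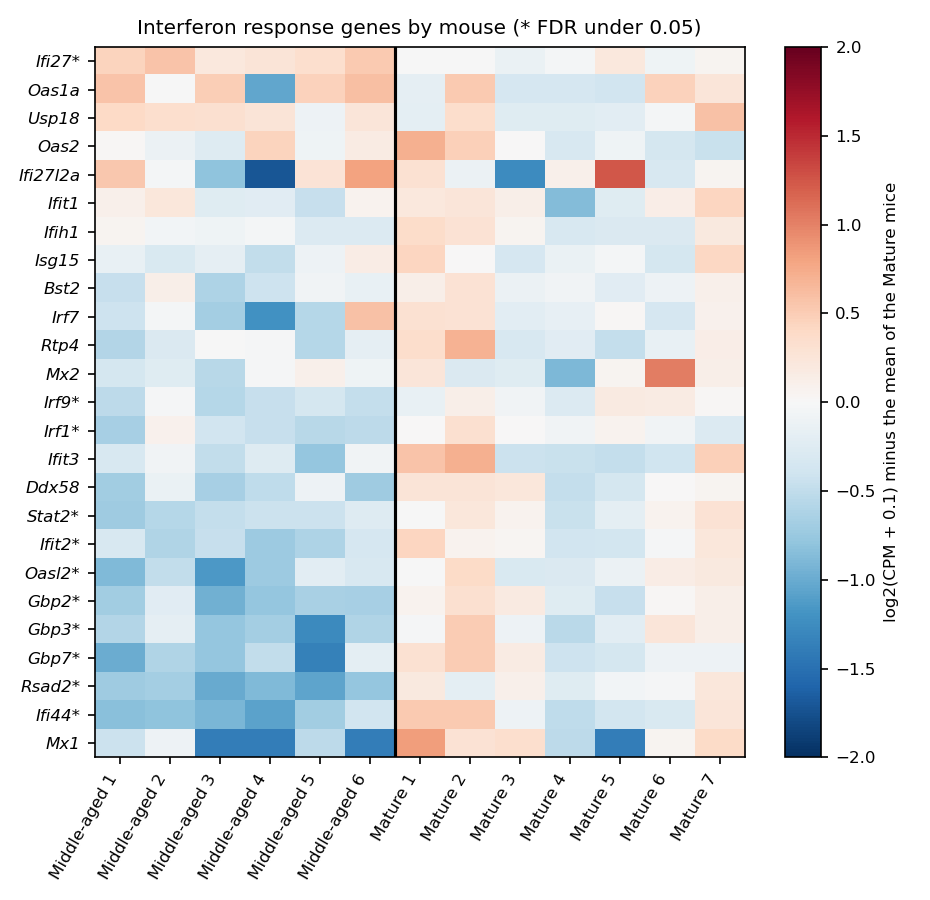
Interferon response genes (25 of the 26 tested, ordered by log2 fold change) in each mouse, with the 6 Middle-aged mice left of the black line and the 7 Mature mice right of it. Colour gives log2(CPM + 0.1) minus the mean of the Mature mice, and asterisks mark the 11 genes called; Rsad2 and Ifi44 are blue in all 6 Middle-aged mice.

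Few immune cell markers were called, apart from antibody genes. Of 18 macrophage markers 15 had a positive logFC (median 0.36), but the median was −0.20 within the libraries of higher and 0.87 within those of lower mitochondrial share and 0.16 without Mature 5 and Mature 7. The list had a summed level of 49.8 to 104 CPM in Middle-aged and 31.0 to 79.7 CPM in Mature mice. The 1 macrophage marker called was Ccr2, a chemokine receptor of recruited monocytes, with a median of 1.78 CPM (1.33 to 2.48) in Middle-aged and 3.23 CPM (1.71 to 5.10) in Mature mice (logFC −0.95, SE 0.22, adjusted p = 0.0086). Of 22 antigen presentation genes 1 fell, H2-T23 (logFC −0.36). Of 12 B cell and plasma cell markers 4 rose, the antibody chain genes Ighg2c, Ighm, Igkc and Jchain. The 1 that fell was Sdc1 (logFC −0.61), a surface proteoglycan of plasma cells and of other cells. Ighg2c, an antibody heavy chain of the IgG class, had a median of 8.84 CPM (6.82 to 11.3) in Middle-aged and 0.488 CPM (0.245 to 0.766) in Mature mice (logFC 4.12, SE 0.21, adjusted p = 7.7e-10). Igkc, the kappa light chain, had a median of 2.16 CPM (0.444 to 5.02) in Middle-aged and 0.200 CPM (0.153 to 0.376) in Mature mice (logFC 3.38, SE 0.49, adjusted p = 0.00023). Ighm, a heavy chain, averaged 178 TPM in Middle-aged and 50.5 TPM in Mature mice. These levels were far above those of Igkc (12.5 and 1.14 TPM). Whether the Ighm reads come from antibody-producing cells was not tested. The B cell receptor genes Cd79a and Cd79b had means of 0.0865 and 0.0839 CPM in Middle-aged and 0.139 and 0.150 CPM in Mature mice and were not called. Cpn1, the catalytic subunit of carboxypeptidase N, which inactivates complement peptides, had a median of 0.896 CPM (0.807 to 1.24) in Middle-aged and 0.0772 CPM (0 to 0.131) in Mature mice, and rose (logFC 3.79, SE 0.40, adjusted p = 1.1e-05). Its counts in Mature mice, 0 to 8, were too low to pass the filter. It was therefore tested through older mice alone and could hardly have fallen.

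Genes of glucose use that were called were lower. Of 29 genes of glycolysis, glycogen and glucose uptake 4 fell and none rose (median −0.07 and −0.17 within the sets). That is 13.8% called, near the 10.3% of all genes tested. Fbp2, the muscle fructose bisphosphatase, which runs a glycolytic step in reverse for glycogen synthesis, had a median of 46.1 CPM (37.9 to 54.5) in Middle-aged and 93.6 CPM (57.1 to 110) in Mature mice. The ranges did not overlap (logFC −0.96, SE 0.15, adjusted p = 0.00048). Txnip, which restrains glucose uptake and thioredoxin, had a median of 672 CPM (592 to 726) in Middle-aged and 814 CPM (803 to 1001) in Mature mice (logFC −0.39, SE 0.08, adjusted p = 0.0024). Pgk1, a glycolytic enzyme, had a median of 671 CPM (630 to 726) in Middle-aged and 861 CPM (733 to 906) in Mature mice (logFC −0.29, SE 0.06, adjusted p = 0.0036), and Hk1 fell too (−0.41). Gatm, which catalyses the first step of creatine synthesis, had a median of 1.88 CPM (1.59 to 2.90) in Middle-aged and 4.22 CPM (3.48 to 10.1) in Mature mice (logFC −1.44, SE 0.26, adjusted p = 0.0015). It had 525 and 507 counts in Mature 5 and Mature 7, against 213 to 282 in the other Mature mice. Among 13 polyamine genes the 2 that fell are catabolic enzymes, Sat1 with a median of 14.5 CPM (11.8 to 15.9) in Middle-aged and 20.02 CPM (17.1 to 21.2) in Mature mice (logFC −0.45, SE 0.08, adjusted p = 0.00091), and Smox, with a logFC of −0.48 (SE 0.13, adjusted p = 0.025) that was not called without Mature 7.

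Of 77 nuclear genes of the respiratory chain 1 rose (Cox8b, logFC 0.29) and 63 had a positive logFC, with a median of 0.08 (0.11 and −0.01 within the sets). Over all genes tested 52% had a positive logFC. The shares called were 1.3% here and 3.66% for the ribosomal genes below, less than the 10.3% of all genes tested. None of the 13 protein genes of the mitochondrial genome and none of 34 genes of the citrate cycle and fatty acid oxidation was called by edgeR or DESeq2 or had an unadjusted p under 0.05. Of 82 cytosolic ribosomal protein genes 3 rose and 73 had a positive logFC (median 0.10, with 0.15 and 0.08 within the sets), and 18 had an unadjusted p under 0.05 in that direction. Of 37 proteasome subunits 24 had a negative logFC (median −0.05, with 0.05 and −0.08 within the sets), and none was called by either tool or had an unadjusted p under 0.05. Of 33 autophagy and lysosome genes 3 rose (Atg4a, Hexa and Lamp1) and 1 fell (Ctsl, logFC −0.39), which is 12.1% called. Among 32 antioxidant genes 3 rose (Gpx3, Gpx4 and Prdx5) and 3 fell (Sod1, Gclm and Msrb1). Gpx3, the secreted glutathione peroxidase, had a median of 223 CPM (175 to 277) in Middle-aged and 122.6 CPM (108 to 169) in Mature mice (logFC 0.71, SE 0.12, adjusted p = 0.00089). Its value was 0.35 within the libraries of higher and 1.01 within those of lower mitochondrial share. Gpx4, which repairs oxidized membrane lipids (0.37), rose with it, and Sod1 (−0.24) and Gclm (−0.42) fell.

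Further genes with large and separate changes do not belong to these lists. Tmem132b, which encodes a transmembrane protein of little known function, had a median of 12.1 CPM (8.26 to 18.01) in Middle-aged and 1.12 CPM (0.892 to 3.13) in Mature mice (logFC 3.05, SE 0.27, adjusted p = 3.4e-06). Syt9, a synaptotagmin, one of the calcium sensors of vesicle release, had a median of 4.75 CPM (3.98 to 7.14) in Middle-aged and 1.01 CPM (0.589 to 2.36) in Mature mice (logFC 2.01, SE 0.26, adjusted p = 7.2e-05). Pla2g5, a secreted phospholipase, had a median of 2.54 CPM (1.62 to 5.40) in Middle-aged and 0.700 CPM (0.311 to 1.02) in Mature mice (logFC 2.11, SE 0.35, adjusted p = 0.00066). In each of these 3 genes the lowest Middle-aged mouse was above the highest Mature mouse. Glb1l2, a gene related to lysosomal beta-galactosidase, had a median of 3.62 CPM (1.94 to 5.38) in Middle-aged and 10.8 CPM (8.33 to 15.2) in Mature mice (logFC −1.64, SE 0.25, adjusted p = 0.00039). Ptprf, a receptor tyrosine phosphatase, had a median of 1.03 CPM (0.597 to 1.77) in Middle-aged and 3.15 CPM (1.83 to 5.18) in Mature mice (logFC −1.58, SE 0.29, adjusted p = 0.0015). In both, the highest Middle-aged mouse was below the lowest Mature mouse.

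**Figure D5:**
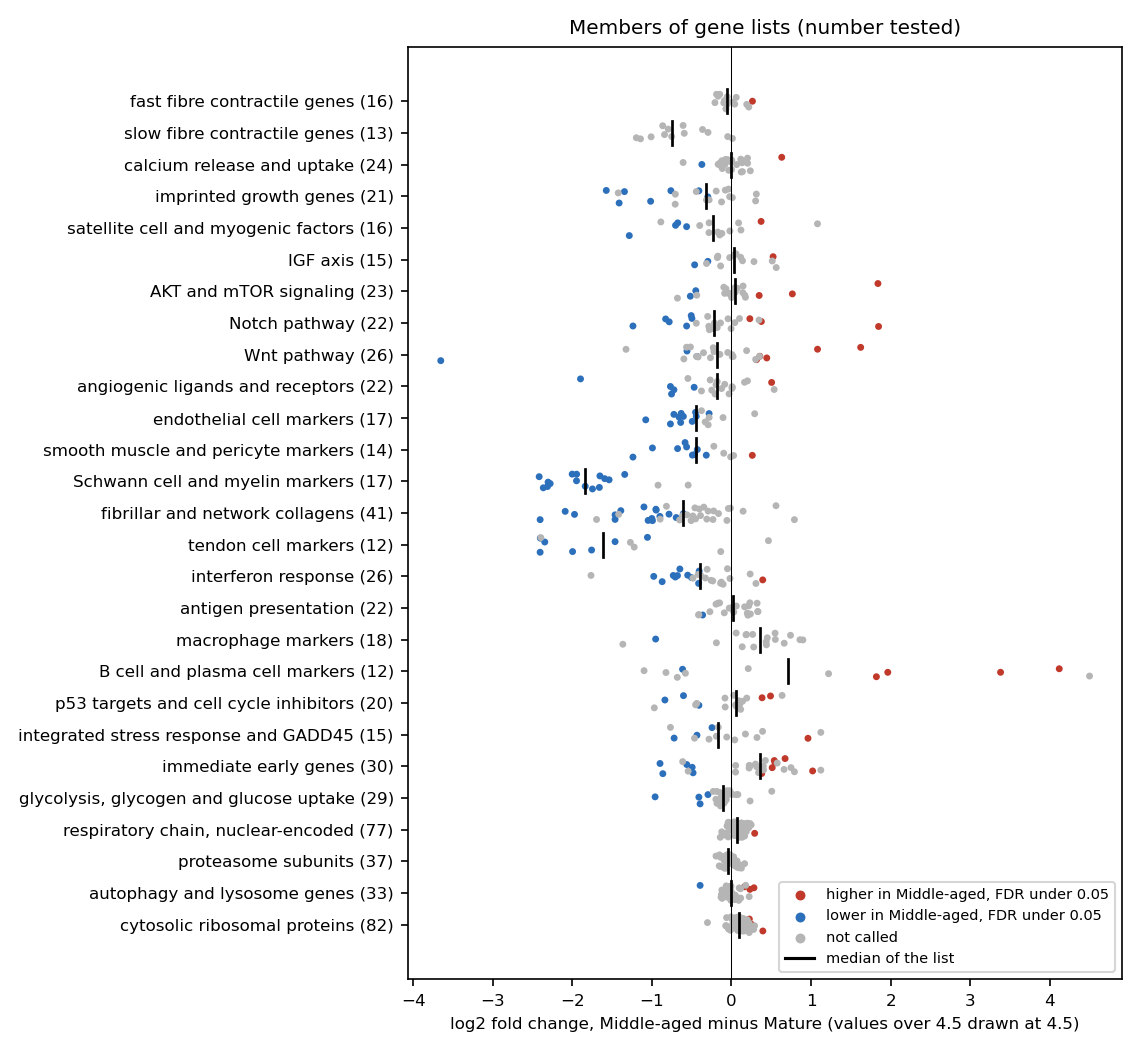
Log2 fold changes (Middle-aged minus Mature) of the members of 27 gene lists, with the number tested in brackets, each point a gene and each black line the median of its list. Red and blue points are genes called higher and lower; Schwann cell, collagen, endothelial and interferon lists hold mostly blue points among their called members, and proteasome and respiratory chain lists cluster at 0.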

How the data were processed

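Gastrocnemius RNA of 17 mice was sequenced with a stranded mRNA kit. Per the labels, the submitters' processing notes name FastQC 0.11.7, Trimmomatic 0.38, HISAT2 2.1.0, featureCounts and mm10, whereas the methods of the study name STAR and StringTie; which program made the table is therefore unsettled. The authors deposited raw read counts and TPM per gene. Counts were tested, and TPM was used only to compare levels between genes. The table also holds 35 columns of per-sample values that were not used: 10 of counts and 8 of TPM that match no sample analysed here, and 17 of FPKM.

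Genes were filtered with filterByExpr, scaled with TMM and fitted with edgeR 4.0.16 (R 4.3.3), with 3 groups (Middle-aged, Mature, ALL) in a quasi-likelihood model. DESeq2 1.42.0 was an alternative. Calls used a Benjamini-Hochberg adjusted p under 0.05. The fit was tested on simulated data. Each library is 1 mouse, and all pairs of libraries within a group differed by more than sampling noise.

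Genes were named by rule: the 15 highest and 15 lowest logFC among called genes over a log2 CPM of 0 whose groups did not overlap, the 10 most abundant called genes per direction, up to 4 called members per list, the 5 highest and 5 lowest among called genes at or under that level, genes that the study's text discusses, and the defining gene of a pathway step. This named 166 genes. Members of the 59 gene lists and the tests were chosen with earlier results of these data known. Start regions came from RefSeq (GRCm38.p6) and were matched by symbol. Some members of the lists are not reported by name here, and the counts of the lists include them.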

Additional observations from a re-analysis of the deposited data

Results flagged for a closer look

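Single values far from the rest of their group were looked for with the test of Dixon, which flags about 1 in 20 groups by chance. Over 246 checks of a group 15 values stood apart, and no cause was tested. The checks took in 62 of the genes named in the text, 59 summed gene lists and library measures. The other named genes were not checked. Among genes, Mature 5 had the highest Tmem132b of its group (3.13 CPM), the highest Igkc (0.376 CPM) and the highest Myh7 (737 CPM). Middle-aged 2 had the highest Gbp2 of its group (4.29 CPM). Peg3 stood apart at 28.8 CPM in Middle-aged 6 and at 73.5 CPM in Mature 6. Calcr was highest in Mature 2 (1.18 CPM), and Smox was lowest in Middle-aged 5 (151 CPM). Among summed lists, neuromuscular junction genes were lowest in Middle-aged 5 (238 CPM), and Schwann cell and myelin markers were highest in Middle-aged 4 (103 CPM). Hox genes of the limb were highest in Middle-aged 6 (197 CPM). Adipocyte markers were highest in Mature 4 (3614 CPM), T cell and NK cell markers in Mature 3 (0.376 CPM) and skin and cartilage markers in Mature 7 (2.90 CPM). Mature 7 also had the smallest library of its group, with 49774656 counts.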

How the results depend on the processing

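With DESeq2 in place of edgeR 2182 genes were called (984 higher, 1198 lower), without TMM scaling 1480, without the filter on low counts 1336, with the 2 groups alone 1663, and with the mitochondrial share as a covariate 2015. Without Mature 5 and Mature 7 the count was 1359 (599 higher, 760 lower). Within the libraries of higher mitochondrial share 1130 genes were called (421 higher, 709 lower), and 1702 of 1703 calls with a value kept their sign. Within those of lower share 412 were called (189 higher, 223 lower), and 1712 of 1712 kept it. The original calls came from these same libraries, so their agreement in sign was largely set in advance. Of the original calls, 44.3% were called again within the higher set and 20.5% within the lower set, in fits that hold fewer mice. Leaving out each Middle-aged or Mature mouse gave 1310 to 1785 calls (563 to 789 higher, 734 to 997 lower), which kept 74.3% to 87.9% of the original calls, and leaving out each ALL mouse gave 1544 to 1816 (688 to 839 higher, 848 to 977 lower). With the replicate number as a block 1584 genes were called (727 higher, 857 lower). The numbers did not pair the mice: 6 same-numbered pairs had correlations of −0.18 to 0.15, and 2 of 6 Middle-aged libraries matched their own number best. Of 163 named genes that were called, 45 kept the call under every alternative that gave a value, and 118 lost it under at least 1. None changed direction, which the shared libraries also made likely in advance. In simulated counts for this comparison over 16731 genes, the test recovered 73 of 100 changes of 2-fold and 50 of 100 of 1.5-fold, so changes of that size can go undetected. The simulation changed far fewer genes than the 1721 called in the data, and it drew each gene independently. Recovery in the real data may therefore differ from these rates.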

Other observations

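Some lists outside the comparisons above held single calls. Of 22 Hippo pathway genes 3 fell, Tead2 (logFC −0.79), Ajuba (−0.78) and Lats1 (−0.20). That is 13.6% called, near the 10.3% of all genes tested. Of 16 chemokines 2 rose (12.5% called), Cxcl13, which attracts B cells (1.51), and Cxcl14 (0.73), and neither was called without Mature 5 and Mature 7. Of 29 heat shock proteins and cochaperones 2 rose (6.9% called), Hspa5 of the endoplasmic reticulum (0.30) and Hspb2 (0.28). All 7 mast cell and granulocyte markers tested had a positive logFC (median 1.01), with a median of 0.01 within the libraries of higher and 1.78 within those of lower mitochondrial share, and 1 was called, Cma1 (1.38), which lost its call in 11 of the 17 fits without 1 library. Adipocyte markers summed to 1517 to 2684 CPM in Middle-aged and 2480 to 3614 CPM in Mature mice, with 0 of 12 called by edgeR. Their median logFC was −0.13 within the libraries of higher and −0.59 within those of lower mitochondrial share. Adipoq, Plin1 and Lep averaged 8.14, 1.08 and 1.80 TPM in Middle-aged and 8.20, 1.61 and 1.37 TPM in Mature mice, so the sum does not describe each marker. Among mitochondrial tRNA genes, 4 were called higher. They are the only calls among the 35 genes of the mitochondrial genome tested (11.4% called, beside 10.3% of all genes tested). The libraries came from an mRNA kit, and how well it measures tRNA was not tested.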
